A study of Mus musculus with 12 samples.

Results

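TRBV1, called Vbeta2 in the older nomenclature, is 1 of the V gene segments from which the variable part of the mouse T cell receptor (TCR) beta chain is built. Its clonotypes were all entries of the 12 deposited clonotype tables whose best-scoring V segment was TRBV1, which gave 9536 of 113665 entries. A clonotype is 1 rearranged beta chain sequence in 1 library, and its clone count was read as a number of unique molecular identifiers (UMIs), that is, of tagged cDNA molecules. TRBV1 held 168307 of 1716882 UMIs over all libraries, and it was 1 of 31 V segments with any UMI.

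The libraries came from donor T cells recovered 6 weeks after transfer into 6 Rag2-/- mice, which make no T or B cells of their own, in the T cell transfer model of colitis. The WT group received naive CD4+ T cells from Prkaa1 f/f donors, which carry floxed alleles of the gene for the AMPKα1 subunit but no Cre, and the KO group received naive CD4+ T cells from Prkaa1 f/f CD4-Cre+ donors, so both groups carried the floxed allele. The CD4-Cre transgene acts from the CD4+CD8+ thymocyte stage on, after most beta chain rearrangement, and it is active in every cell derived from that stage, CD8+ T cells included. The labels give the strain as C57BL/6, the cells as CD4+ T cells and replicate numbers 1, 3 and 4 for WT and 1, 2 and 3 for KO, with a spleen and a mesenteric lymph node (mLN) library per mouse, and they give no ages. The libraries hold only TCR beta transcripts, so neither the deletion of Prkaa1 nor the CD4+ T cell identity could be checked in them, and whether donor mice were pooled is not stated in the sources used here.

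During T cell development, 1 V, 1 D and 1 J segment are joined, bases are trimmed from their ends and others are added, and the joint encodes the complementarity-determining region 3 (CDR3), the part of the chain that mostly contacts the peptide. Each cell thereby makes a beta chain that its progeny keep, so a CDR3 sequence marks a clone. Mouse TRBV1 is unusual in its position at the far 5′ end of the locus, separated from the other V segments by trypsinogen genes, and it is recognised by Vbeta2 antibodies in flow cytometry.

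The end of the germline segment shows what every TRBV1 CDR3 starts with. A match of the untrimmed CDR3 start from the tables to the mouse genome, build GRCm38, placed it at chr6:40891869-40891885 on the plus strand, at the 3′ end of the second and last exon of Trbv1 (gene at chr6:40891229-40891885, exons at chr6:40891229-40891350 and chr6:40891591-40891885). Trbv1 was the first gene of the annotated beta locus, 155 kb before Trbv2. The 17 bases are followed by the recombination signal, a heptamer of 7 bases, a spacer of 23 and a nonamer of 9, at chr6:40891886-40891924. In the line below, the heptamer and nonamer are in capitals and the CDR3 part comes before them.

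TRBV1 end, germline: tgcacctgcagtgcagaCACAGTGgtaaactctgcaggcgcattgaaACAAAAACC

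The 17 bases encode cysteine, threonine, cysteine, serine and alanine, with 2 bases left over. A cysteine in the third codon therefore marked TRBV1 CDR3s unless trimming reached it. It was present in 99.3% ± 0.579 (SD, n = 6 mice) of productive TRBV1 clonotypes and in 0.0984% ± 0.0738 of those with another V segment. TRBV1 entries were assigned by alignment to the germline segment that holds this codon, so a high share follows from how they were chosen.

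The clonotypes that carried the most TRBV1 UMIs show what was added to this start. For each mouse, the productive clonotype with the highest mean share of the library over both organs is given as its CDR3, with the bases between the aligned V and J parts in capitals. The last line is the TRBV1 CDR3 found in most mice.

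WT replicate 1, TRBJ2-1: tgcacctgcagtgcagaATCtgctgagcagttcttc
WT replicate 3, TRBJ1-1: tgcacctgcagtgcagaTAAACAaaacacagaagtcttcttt
WT replicate 4, TRBJ2-7: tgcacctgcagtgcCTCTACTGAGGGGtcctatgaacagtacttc
KO replicate 1, TRBJ2-7: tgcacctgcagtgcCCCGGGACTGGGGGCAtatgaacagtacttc
KO replicate 2, TRBJ1-1: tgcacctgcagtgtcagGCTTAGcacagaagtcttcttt
KO replicate 3, TRBJ1-1: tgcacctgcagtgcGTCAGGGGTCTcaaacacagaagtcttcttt
4 mice, TRBJ2-7: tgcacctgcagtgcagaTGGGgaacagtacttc

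The 6 leading CDR3s were 36, 42, 45, 45, 39 and 45 bases long in the order shown, with 3, 6, 13, 16, 6 and 11 bases between V and J, so the V parts were alike and the middles were not. In WT replicates 1 and 3 no V base was trimmed. In the KO replicate 2 clonotype the aligner extended the V part through a stretch that differs from the germline, so its count of 1 trimmed V base depends on that alignment. Of 1770 TRBV1 clonotypes with 2 or more UMIs, 92.8% had an aligned V part that was identical to the germline.

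Library depth differed widely and so did the number of TRBV1 clonotypes. Totals ranged from 2488 UMIs in the mLN of KO replicate 3 to 493287 in the spleen of WT replicate 3, and the limit that a count of 0 allows, 3 UMIs of the total, ranged from 0.000608% to 0.121%. In 7 libraries (both organs of WT replicates 3 and 4 and KO replicate 2, and the spleen of KO replicate 3), 68.4% to 87.0% of the TRBV1 clonotypes had 1 UMI, and 47.5% to 63.1% of these differed from the usual TRBV1 CDR3 in the first 6 bases. The same share among other V segments in these libraries was 26.2% to 38.8%. In the other 5 libraries 18.2% to 43.2% of TRBV1 clonotypes had 1 UMI, and 0% to 7.89% of these had a changed start. Positions counted from 1 at the 5′ end of the CDR3, the fourth base differed in 36.7% of TRBV1 clonotypes with 1 UMI, most often as A4T, and the fifth in 18.2%, most often as C5G, whereas among clonotypes with 2 or more UMIs these positions differed in 1.07% and 0.509%. Clonotypes with changed ends carried 0% to 6.60% of TRBV1 UMIs. Clonotypes were therefore counted from 2 UMIs on, and comparisons of the genotypes are also given within the libraries with few and with many changed ends, which do not follow the genotype. Those with few had 2488 to 64882 UMIs and those with many 68536 to 493287, so this split cannot be told apart from depth. Both organs of replicate 1 of WT and of KO were among those with few.

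TRBV1 was among the most used V segments in these T cells. Its mean over the 12 libraries was 8.82% of UMIs, the third highest of 25 segments after TRBV13-2 at 13.3% and TRBV5 at 9.01%, and just above TRBV13-1 at 8.19%. It was the top segment in 2 libraries, the mLN of WT replicate 1 and the spleen of KO replicate 2, and ranked lowest, at 13, in the mLN of KO replicate 3. UMIs count cDNA molecules, so more cells and more transcripts per cell cannot be told apart.

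**Figure D1:**
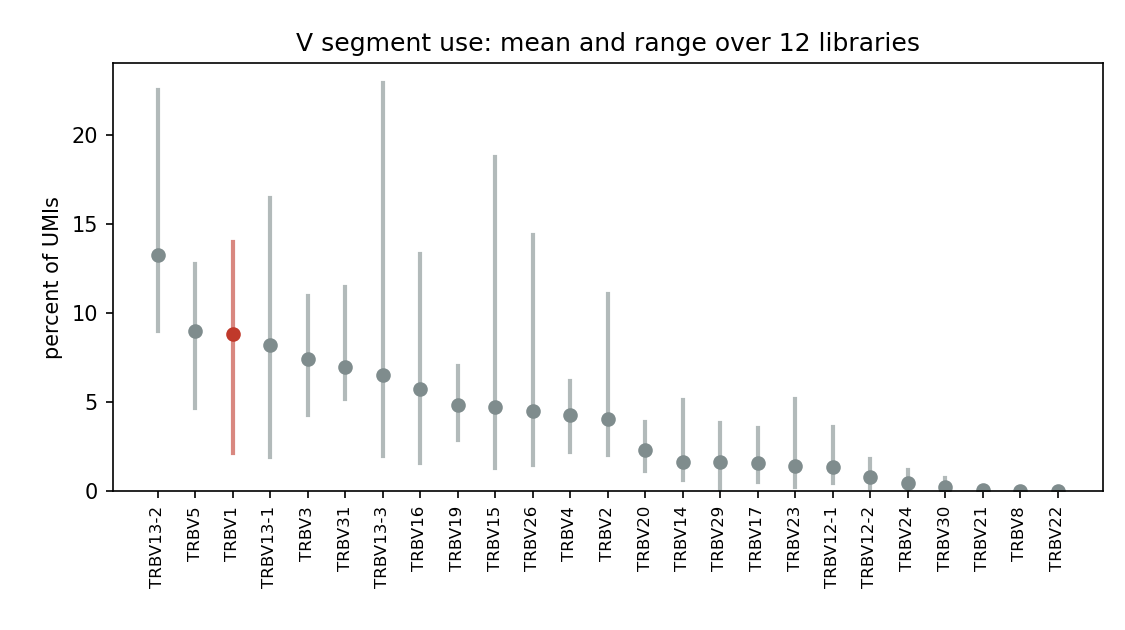
Percent of UMIs (y axis) for each of 25 V segments (x axis, ordered by their mean), with the point at the mean and the line from the lowest to the highest of the 12 libraries; TRBV1 is in red. TRBV1 had a mean of 8.82% and a range of 2.13% to 14.0%, which overlapped the ranges of its neighbours in the order, TRBV5 and TRBV13-1.

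The first question was whether the share of TRBV1 changed in the absence of AMPKα1. In the spleen, TRBV1 made up 9.20% of UMIs in WT replicate 1, 12.6% in WT replicate 3 and 8.94% in WT replicate 4, against 5.16%, 11.2% and 4.92% in KO replicates 1, 2 and 3. KO replicates 1 and 3 lay below all WT mice and KO replicate 2 lay among them, so the groups overlapped. In the mLN the WT values were 14.0%, 10.7% and 8.90% and the KO values 6.50%, 11.7% and 2.13%, with the same 2 KO mice low and the same KO mouse within the WT range. The Wilson 95% confidence intervals of these shares were narrow next to the spread between mice, the widest being 13.4% to 14.6% in the mLN of WT replicate 1 and 1.63% to 2.78% in the mLN of KO replicate 3, and they cover counting error only.

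The 4 groups in the order of their means were WT mLN at 11.2% ± 2.57 (SD, n = 3), WT spleen at 10.2% ± 2.05, KO spleen at 7.10% ± 3.57 and KO mLN at 6.77% ± 4.78. Each difference between neighbours in this order was smaller than the larger of their SDs. KO minus WT was -3.14 percentage points in the spleen and -4.41 in the mLN. In each organ this was more than the SD of WT and less than that of KO in size. The log2 fold change of KO over WT was -0.53 (SE 0.495, adjusted p = 0.685) in the spleen and -0.72 (SE 0.489, adjusted p = 0.705) in the mLN by edgeR's quasi-likelihood test, and neither passed the threshold. Single mice moved these values: without KO replicate 2 they were -1.02 and -1.36, and without KO replicate 3 -0.32 and -0.30, and in the spleen -0.34 without KO replicate 1 and -0.35 without WT replicate 3. For comparison, 2 of 25 V segments, or 8%, passed in the spleen, and 0 of 23, or 0%, passed in the mLN with edgeR, where 1 had an unadjusted p under 0.05 and DESeq2 called 0. The two-sided exact permutation test on the percentages gave p = 0.3 in each organ, where the smallest p that 3 mice against 3 allow is 0.1.

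**Figure D2:**
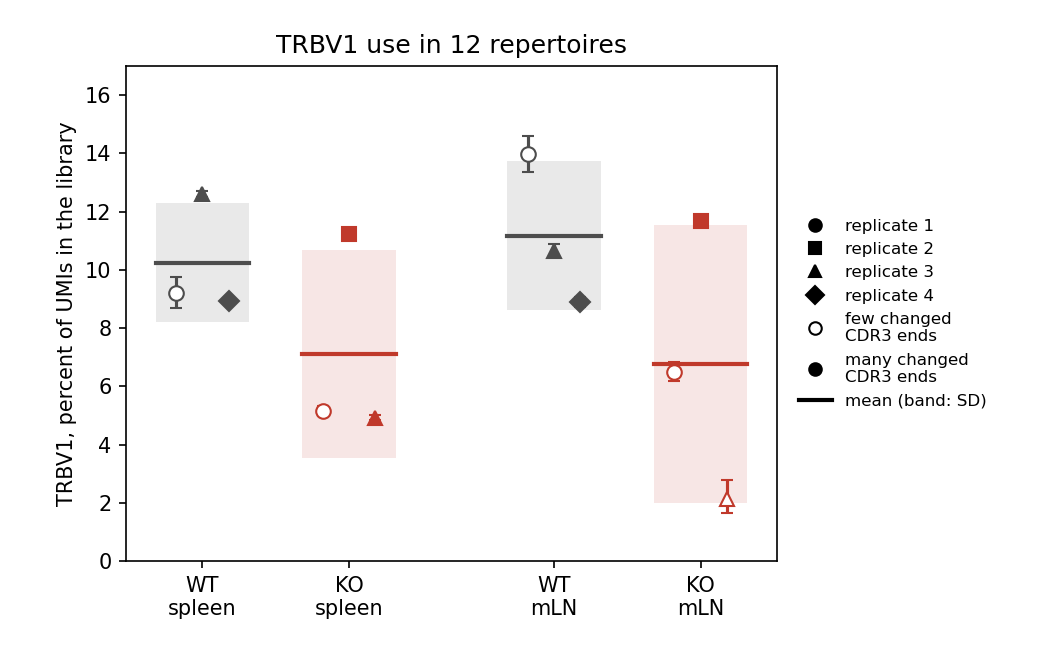
TRBV1 as percent of the UMIs of its library (y axis) by genotype and organ (x axis), with 1 symbol per mouse, Wilson 95% intervals as bars, the group mean as a line and the SD as a band; open symbols are libraries with few changed CDR3 ends. KO replicates 1 and 3 lie below every WT mouse in both organs, at 2.13% to 6.50%, while KO replicate 2 lies at 11.2% and 11.7%.

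Within the libraries with few changed CDR3 ends, KO minus WT was -4.04 percentage points in the spleen, with 1 mouse against 1, and -9.65 in the mLN, with 2 KO mice against 1. Within those with many changed ends it was -2.69 in the spleen, with 2 against 2, and 1.90 in the mLN, where the only KO library was that of KO replicate 2, so the direction in the mLN turned. The part that this property of the libraries, or the depth that goes with it, has in the difference was not tested.

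Counted as clonotypes, so that the size of a clone did not matter, TRBV1 varied less between mice. In the spleen it made up 8.05%, 6.89% and 7.10% of clonotypes with 2 or more UMIs in WT replicates 1, 3 and 4 and 6.99%, 5.87% and 6.31% in KO replicates 1, 2 and 3. In the mLN the corresponding values were 6.72%, 8.11% and 7.38% in WT and 6.47%, 6.60% and 4.74% in KO mice. The mLN groups did not overlap, with means of 7.40% ± 0.695 and 5.94% ± 1.04 (SD, n = 3), and the exact permutation p was 0.1, the smallest possible, but 5 of 21 V segments, or 23.8%, had groups that did not overlap by this measure. The lowest value rests on 9 TRBV1 clonotypes among 190 in the mLN of KO replicate 3. The spleen groups overlapped, at 7.35% ± 0.615 in WT and 6.39% ± 0.562 in KO (exact permutation p = 0.2). By edgeR on clonotypes per segment, the log2 fold change was -0.17 in the spleen (adjusted p = 0.563) and -0.23 in the mLN (adjusted p = 0.464). Within the libraries with few and with many changed ends, KO minus WT was -1.06 and -0.904 percentage points of clonotypes in the spleen and -1.12 and -1.15 in the mLN.

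Spleen and mLN did not differ in TRBV1 use in a common direction. The mLN minus spleen difference was 4.76 percentage points in WT replicate 1, -1.95 in WT replicate 3, -0.0324 in WT replicate 4, 1.35 in KO replicate 1, 0.448 in KO replicate 2 and -2.79 in KO replicate 3. It was positive in 3 of 6 mice, with a mean of 0.298 ± 2.67 (SD, n = 6, exact sign-flip p = 0.844). With the mouse as a block, edgeR gave a log2 fold change of -0.05 (SE 0.211, adjusted p = 0.920) and called 0 of 25 segments, or 0%, with 3 at an unadjusted p under 0.05 and 1 called by DESeq2. The genotype by organ term for TRBV1 was -0.35 (SE 0.413, adjusted p = 0.903), and it was called for 0 of 25 segments, or 0%, with 2 at an unadjusted p under 0.05. Without KO replicate 3, whose mLN library was the smallest, the organ difference was 0.15 and the interaction 0.08, both with the opposite sign and neither past the threshold.

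The V segments whose use over the 12 libraries was most like that of TRBV1 were TRBV16, TRBV29 and TRBV24. The Pearson correlations of log2(percent of UMIs + 0.1) with TRBV1 were 0.69, 0.69 and 0.69, the highest of 24 segments compared, over 12 libraries that share mice and the sum to a total. TRBV16 averaged 5.73% of UMIs, TRBV29 1.65% and TRBV24 0.449%. The lowest share of TRBV29 and of TRBV24 was 0.0804%, 2 UMIs in the mLN of KO replicate 3, under the limit of 0.121% there. TRBV1 was also lowest in that library, at 2.13%, and the weight of this library in the correlations was not tested. The KO over WT log2 fold changes of TRBV16 were -0.52 in the spleen and -1.19 in the mLN (adjusted p = 0.685 and 0.655), those of TRBV29 were 0.39 and -0.10 (adjusted p = 0.764 and 0.921) and those of TRBV24 -0.48 and -0.97 (adjusted p = 0.764 and 0.705), and none of these passed the threshold.

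Expanded TRBV1 clones made up much of the TRBV1 share, to a different degree in each mouse, and the 10 largest held 36.9% of TRBV1 UMIs in the mLN of WT replicate 4 and 85.6% in that of WT replicate 1, the lowest and highest of the 11 libraries with more than 11 TRBV1 clonotypes. In WT replicate 1, the clonotype with 3 bases between V and J and TRBJ2-1 (the shortest of the leading CDR3s above) held 352 of 11271 UMIs in the spleen, 3.12% (Wilson 95% interval 2.82% to 3.46%), and 842 of 11987 in the mLN, 7.02% (6.58% to 7.5%). It was the largest clonotype of that mLN library and held 50.3% of its TRBV1 UMIs. In KO replicate 2, the leading TRBJ1-1 clonotype was the largest of both libraries, with 2.37% of UMIs in the spleen and 3.13% in the mLN. Both mice therefore had a TRBV1 clone at the top of at least 1 organ.

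The leading TRBV1 clonotype of WT replicate 3 held 1.98% of the spleen and 1.17% of the mLN, and that of WT replicate 4 held 1.33% and 0.593%. In KO replicate 1 the leading clonotype held 0.470% of the spleen and 0.728% of the mLN, at ranks 33 and 20 in the libraries, and the second, with TRBJ2-2, held 0.543% and 0.594%. In KO replicate 3 the leading clonotype held 0.756% of the spleen at rank 19.

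In KO replicate 2 the second clonotype had TRBJ1-3 and held 1.05% of the spleen and 2.52% of the mLN, where it ranked 3. In WT replicate 1 it had TRBJ2-1, 0.541% and 1.66%, in WT replicate 3 TRBJ2-2, 1.21% and 1.45%, and in WT replicate 4 TRBJ2-7, 0.480% and 0.428%. That of KO replicate 3, with TRBJ1-3, held 0.222% of the spleen and 0.442% of the mLN. The largest and the second clonotype of a mouse thus had different J segments in 4 of the 6 mice.

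The top clonotype held 42.1%, 14.7% and 10.8% of TRBV1 UMIs in WT replicates 1, 3 and 4, as the mean of both organs, and 10.9%, 24% and 18.1% in KO replicates 1, 2 and 3. The means were 22.5% ± 17.1 and 17.6% ± 6.56 (SD, n = 3, exact permutation p = 0.9, adjusted p = 1), and the WT mean rested on replicate 1: without it, KO was higher by 4.91 percentage points. KO minus WT was -31.3 points in the mice with few changed CDR3 ends, with 1 mouse against 1, and 11.2 in those with many, with KO replicate 2 against 2 WT mice. At a common depth of 53 TRBV1 UMIs, WT mice had 16.7, 25.1 and 32.4 TRBV1 clonotypes and KO mice 24.4, 19.8 and 21.6, with overlapping groups (24.7 ± 7.89 and 21.9 ± 2.29, exact permutation p = 0.6) and a difference of 7.70 within the mice with few changed ends and -8.94 within those with many. Among the 100 largest clonotypes of a library, TRBV1 accounted for 8 to 14 in WT and 4 to 10 in KO mice over both organs, with exact permutation p = 0.4 in the spleen and 0.3 in the mLN. KO minus WT was 2 clonotypes within the spleens with few changed ends and -5.5 within those with many, and -1 and -4.5 in the mLN. With the largest TRBV1 clonotype taken out of each library, TRBV1 still made up 8.27% ± 2.33 of WT and 5.97% ± 2.69 of KO spleen UMIs, and 8.39% ± 0.940 and 5.45% ± 3.58 of mLN UMIs (SD, n = 3, exact permutation p = 0.3 in each organ). Within the libraries with few and with many changed ends, KO minus WT was then -1.63 and -2.64 percentage points in the spleen and -3.71 and -0.0280 in the mLN.

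TRBV1 clones were found in both organs of a mouse. Of the TRBV1 clonotypes with 2 or more UMIs over both organs, 55 of 69, 159 of 393 and 181 of 424 were present in spleen and mLN in WT replicates 1, 3 and 4, and 64 of 98, 111 of 187 and 11 of 168 in KO replicates 1, 2 and 3. These were 79.7%, 40.5%, 42.7%, 65.3%, 59.4% and 6.55% in that order. For the other V segments the shares were 68.6%, 42.4%, 46.4%, 63.2%, 56.9% and 9.85%. The means were 49.0% ± 25.4 and 47.9% ± 21.1 (SD, n = 6), so the TRBV1 share was near that of the other segments. All TRBV1 clonotypes with at least 0.1% of either library occurred in both organs in 5 mice, with 14, 23 and 25 of them in the WT mice and 19 and 18 in KO replicates 1 and 2. In KO replicate 3, 7 of 14 did. The Morisita-Horn overlap of TRBV1 between the organs, which is 1 for identical frequencies and 0 for no shared clone, was 0.894, 0.905 and 0.818 in the WT mice, 0.912 in KO replicate 1, 0.868 in KO replicate 2 and 0.276 in KO replicate 3. The groups overlapped (0.872 ± 0.0476 and 0.685 ± 0.355, SD, n = 3, exact permutation p = 0.7), and KO minus WT was 0.0178 within the mice with few changed ends and 0.00601 within those with many, which leaves out KO replicate 3 because its libraries were of both kinds.

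The mLN library of KO replicate 3 held 53 TRBV1 UMIs in 11 clonotypes, and all 11 were also in its spleen. The leading spleen clonotype, at 1670 of 220935 UMIs, had 0 of 2488 in the mLN, which allows a share of up to 0.121% there. The clonotype with the most TRBV1 UMIs in that mLN, with TRBJ1-3 and no base left between the aligned V and J parts, held 11 UMIs, 0.442% (Wilson 95% interval 0.247% to 0.790%), and 491 UMIs, 0.222%, in the spleen. In this mouse the overlap of all other V segments was 0.490, which was higher than that of TRBV1, whereas in the other 5 mice it was 0.464 to 0.881 and lower than that of TRBV1 in each.

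**Figure D3:**
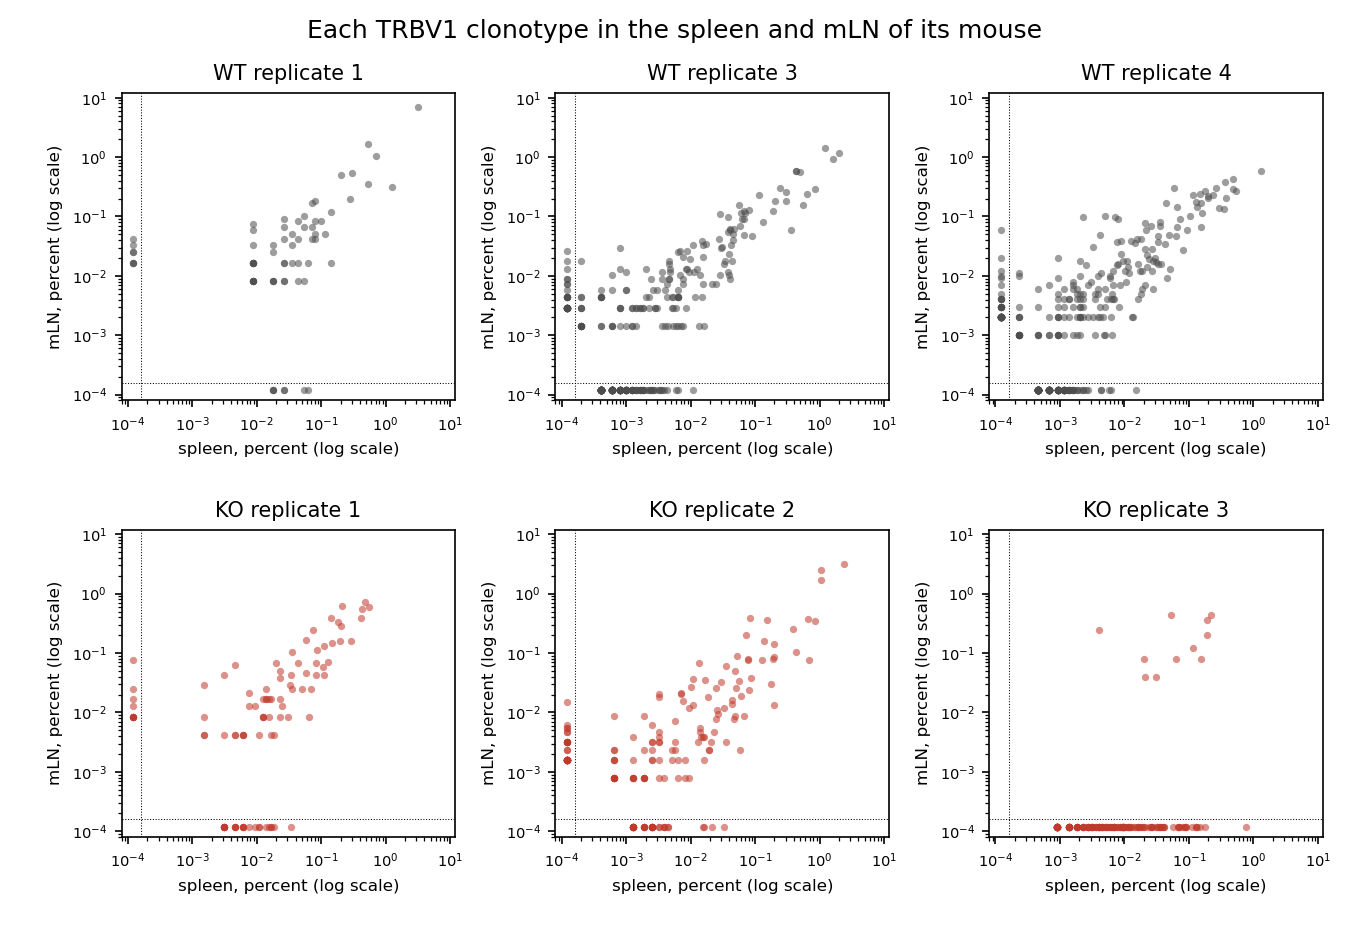
Each point is a TRBV1 clonotype with 2 or more UMIs over both organs, by its percent of spleen UMIs (x axis, log scale) and of mLN UMIs (y axis, log scale), with 1 panel per mouse; points beyond the dotted lines had 0 UMIs in that organ. The clonotypes with at least 0.1% in an organ have UMIs in both organs in 5 mice, and in KO replicate 3 only 11 of 168 clonotypes were seen in the mLN.

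Few TRBV1 CDR3s were found in more than 1 mouse. Of 1102 distinct productive TRBV1 nucleotide CDR3s with 2 or more UMIs in a mouse, 39, or 3.54%, occurred in at least 2 mice and 2 in at least 3, against 515 of 14542, or 3.54%, for all other V segments. At the amino acid level the shares were 4.46% and 6.93%. A CDR3 of the other segments counted as shared whatever its V segment, while a TRBV1 CDR3 could match only another with TRBV1. The pool of other segments is also larger. The shares are therefore unlike measures, and they were not tested against each other.

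The most widespread TRBV1 CDR3 had TRBJ2-7, 33 bases and 4 bases between V and J (the last line of the sequences above). It had 2 or more UMIs in 4 mice, and in none of them did it exceed 0.0111% of a library: 5 UMIs in the spleen of WT replicate 3, 1 and 11 in the spleen and mLN of WT replicate 4, 4 in the spleen of KO replicate 1 and 2 in the mLN of KO replicate 2. The only other CDR3 in 3 mice was the leading clonotype of WT replicate 1, and of those in 2 mice, the one with the highest summed share was the leading clonotype of KO replicate 2. The former had 18 UMIs in WT replicates 3 and 4 together, at most 0.00603% of a library, and the latter had 2 UMIs in the spleen of KO replicate 3. Of the 12 clonotypes chosen as the largest 2 of each mouse, 11 had at least 1 UMI in another mouse, with 8 UMIs in a library at most. Whether such low counts are the same rearrangement made again or reads carried between libraries was not tested; with every clonotype removed that another mouse had at 100 or more times its frequency, the KO over WT log2 fold change of TRBV1 remained -0.53 in the spleen and was -0.71 in the mLN.

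The joints of TRBV1 were compared with those of all other V segments in the same libraries, with each clonotype of 2 or more UMIs counted once. Productive TRBV1 CDR3s, which are in frame and without a stop codon, had a mean length of 42.3 ± 0.412 bases (SD, n = 6 mice) against 41.3 ± 0.0506 for other V segments, a difference of 0.972 ± 0.404 bases that was positive in 6 of 6 mice, from 0.460 in WT replicate 3 to 1.68 in KO replicate 1. The exact sign-flip p was 0.0313, the smallest that 6 mice allow, and 0.0625 after adjustment over the 6 measures, so the difference did not pass the threshold. Weighted by UMIs, it was 0.560 bases (exact sign-flip p = 0.5). Among 18 V segments, TRBV1 had the third longest mean, with TRBV5 longest at 43.2 and TRBV20 shortest at 39.3 bases. With clonotypes of both organs joined, CDR3s of 15 codons made up 27.8% ± 2.17 of productive TRBV1 clonotypes and 20.4% ± 0.650 of the others, and those of 13 codons 18.2% ± 2.80 and 23.3% ± 1.15, while 14 codons was the commonest length in both, at 29.3% and 31.8%.

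TRBV1 had lower means than the other segments for V bases trimmed and for bases between V and J in each mouse, but neither difference passed the threshold. The mean number trimmed was 2.03 ± 0.227 against 2.43 ± 0.0835, lower in 6 of 6 mice, and the mean number of bases between V and J was 8.54 ± 0.701 against 9.0 ± 0.10, also lower in 6 of 6 mice (SD, n = 6, exact sign-flip p = 0.0313 and adjusted p = 0.0625 for each). Weighted by UMIs, the difference in bases trimmed was -0.824. The difference in bases between V and J was largest in KO replicate 3, at -1.77, where 9 TRBV1 clonotypes stood for the mLN and smallest in KO replicate 1, at -0.00394. With KO replicate 3 represented by its spleen alone, the mean differences were -0.29 bases trimmed and -0.33 bases between V and J, and without this mouse the latter was -0.191. Among 18 V segments, with both organs joined, TRBV1 ranked 12 from the highest for bases trimmed, at 2.13, with TRBV31 lowest at 0.839. For bases between V and J it ranked 13, at 8.70, with TRBV20 lowest at 8.04. TRBV1 was thus not at an extreme among single segments in either measure.

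The trimming of TRBV1 had 2 peaks. The V end was untrimmed in 26.9% ± 2.59 of TRBV1 clonotypes and in 26.5% ± 1.56 of the others. A loss of 3 bases was found in 22.3% ± 3.83 of TRBV1 clonotypes against 12.3% ± 0.662, and a loss of 2 bases in 8.59% ± 1.78 against 15.9% ± 1.13 (SD, n = 6 mice), and in both cases the range over mice did not overlap between TRBV1 and the other segments. A loss of 3 bases leaves the germline start up to the second base of the fifth codon, as in the leading clonotypes of WT replicate 4 and of KO replicates 1 and 3. These shares are a description of positions chosen after their values were seen. The other V segments were pooled here, and the profile of TRBV1 was not compared with that of any single segment. Whether the 2 peaks are particular to TRBV1 was therefore not tested.

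**Figure D4:**
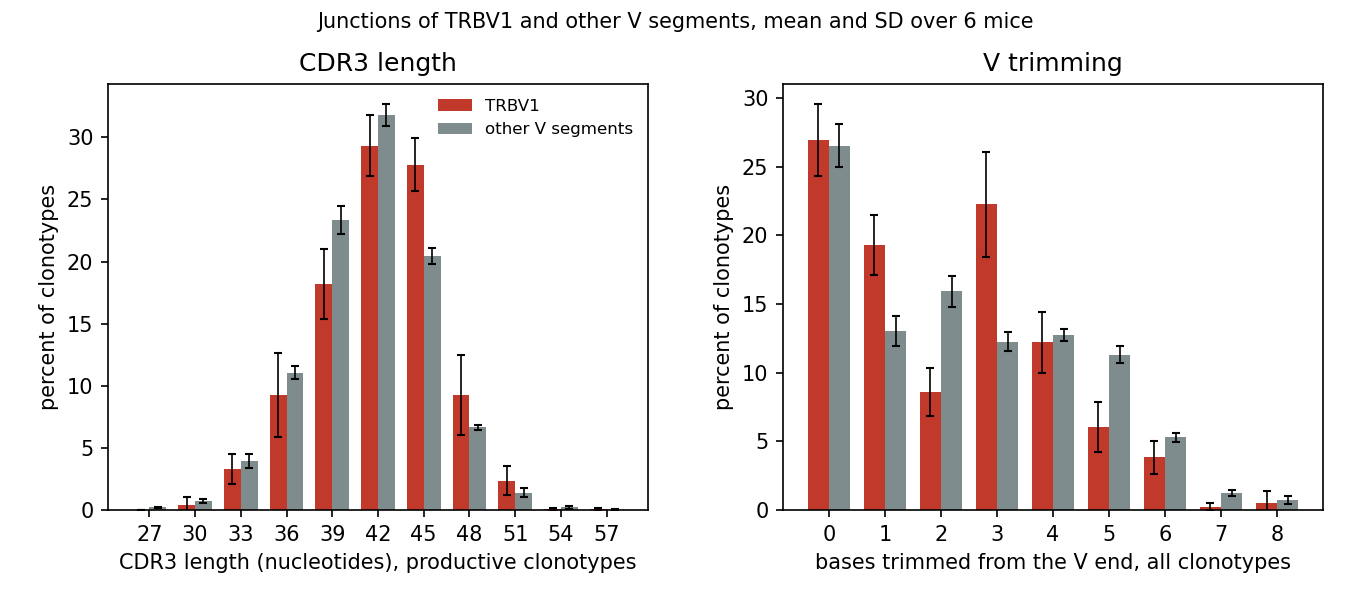
Left, length of productive CDR3s in bases (x axis) and right, number of bases trimmed from the V end (x axis), each as percent of clonotypes with 2 or more UMIs (y axis) for TRBV1 (red) and all other V segments (grey), as mean bars with SD over 6 mice. TRBV1 had more CDR3s of 45 bases, 27.8% against 20.4%, and more clonotypes that had lost 3 V bases, 22.3% against 12.3%.

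Clonotypes that could not encode a receptor did not differ in a common direction between TRBV1 and the other segments. Out-of-frame or stop-containing CDR3s made up 14.1% ± 4.27 of TRBV1 clonotypes and 14.0% ± 2.74 of the others, a difference of 0.155 ± 3.0 percentage points that was positive in 3 of 6 mice (SD, n = 6, exact sign-flip p = 0.875, adjusted p = 0.875). They held 1.31% to 5.83% of TRBV1 UMIs in 11 libraries and 24.5% of the 53 in the mLN of KO replicate 3. With both organs joined, nonproductive TRBV1 clonotypes averaged 6.14 to 39.2 UMIs over the 6 mice and productive ones 42.4 to 206, while the medians were 3 to 5 and 4.5 to 15. In 5 of 6 mice the nonproductive TRBV1 clonotypes had lost fewer V bases than the productive ones (1.93 ± 0.615 against 2.18 ± 0.146), while those of other V segments had lost more in every mouse (2.73 ± 0.112 against 2.4 ± 0.0729), which was not tested. The exception for TRBV1 was WT replicate 1, with 7 nonproductive clonotypes. The mean number of UMIs per clonotype was higher for TRBV1 in 4 of 6 mice, by 0.29 ± 0.677 on the log2 scale (p = 0.344 by the exact sign-flip test and 0.413 after adjustment).

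By edgeR, the J use of TRBV1 differed from that of other V segments past the threshold at TRBJ2-5 alone. TRBV1 clonotypes had TRBJ2-5 in 15.9%, 7.89% and 8.25% of cases in WT replicates 1, 3 and 4 and in 13.3%, 5.88% and 10.7% in KO replicates 1, 2 and 3. The other V segments had it in 12.7%, 13.4% and 13.5% and in 14.6%, 12.3% and 12.9%. TRBJ2-5 was thus rarer with TRBV1 in 5 of 6 mice, the exception being WT replicate 1 with 11 of 69 TRBV1 clonotypes. The log2 fold change against other V segments was -0.58 (SE 0.123, adjusted p = 0.000201, edgeR with the mouse as a block), and 1 of 12 J segments, or 8.33%, passed the threshold. With DESeq2 it was -0.51 and did not pass (adjusted p = 0.0732), and over the alternatives the adjusted p ranged from 7.29e-05 to 0.0732. Both fits count clonotypes, so mice with more clonotypes weigh more, and the sign-flip test over mice was not run on this share. The direction was the same within the mice with many changed ends, WT replicates 3 and 4 and KO replicate 2, and it was mixed in the 2 with few.

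The share of TRBJ2-5 was lower with TRBV1 in productive and in nonproductive clonotypes, counted over all mice. It was found in 108 of 1144 productive TRBV1 clonotypes, 9.44% (Wilson 95% interval 7.88% to 11.3%), and in 11 of 195 nonproductive ones, 5.64% (3.18% to 9.82%). Among other V segments it was found in 13.3% of productive and 12.8% of nonproductive clonotypes. The intervals pool the clonotypes of all mice and leave out the spread between mice. With both kinds of clonotype together, the TRBV1 share ranged from 5.88% to 15.9% over mice. TRBV1 had the second lowest mean share of TRBJ2-5 among 18 V segments, at 10.3% ± 3.75 (SD, n = 6 mice), with TRBV15 lower at 9.13% ± 2.15 and TRBV13-1 next at 10.7% ± 1.77, so TRBV1 did not stand apart from these neighbours.

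By the mean over mice, the J segments most used with TRBV1 were TRBJ2-7, TRBJ1-1 and TRBJ2-5, followed by TRBJ2-4. TRBJ2-7 was joined to 17.4% ± 2.12 of TRBV1 clonotypes and to 17.8% ± 0.538 of the others (log2 fold change -0.01, adjusted p = 0.943). TRBJ1-1 was joined to 12% ± 1.83 against 10.1% ± 0.564 (log2 fold change 0.30, SE 0.107, adjusted p = 0.0692), higher in 5 of 6 mice but not past the threshold. TRBJ2-4 was joined to 9.76% ± 1.31 against 10.1% ± 0.630 (log2 fold change -0.06, adjusted p = 0.723). The TRBJ2 cluster as a whole made up 60.5% ± 6.92 of TRBV1 and 65.9% ± 1.21 of other clonotypes, lower in 4 of 6 mice (p = 0.188 by the exact sign-flip test and 0.281 after adjustment).

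**Figure D5:**
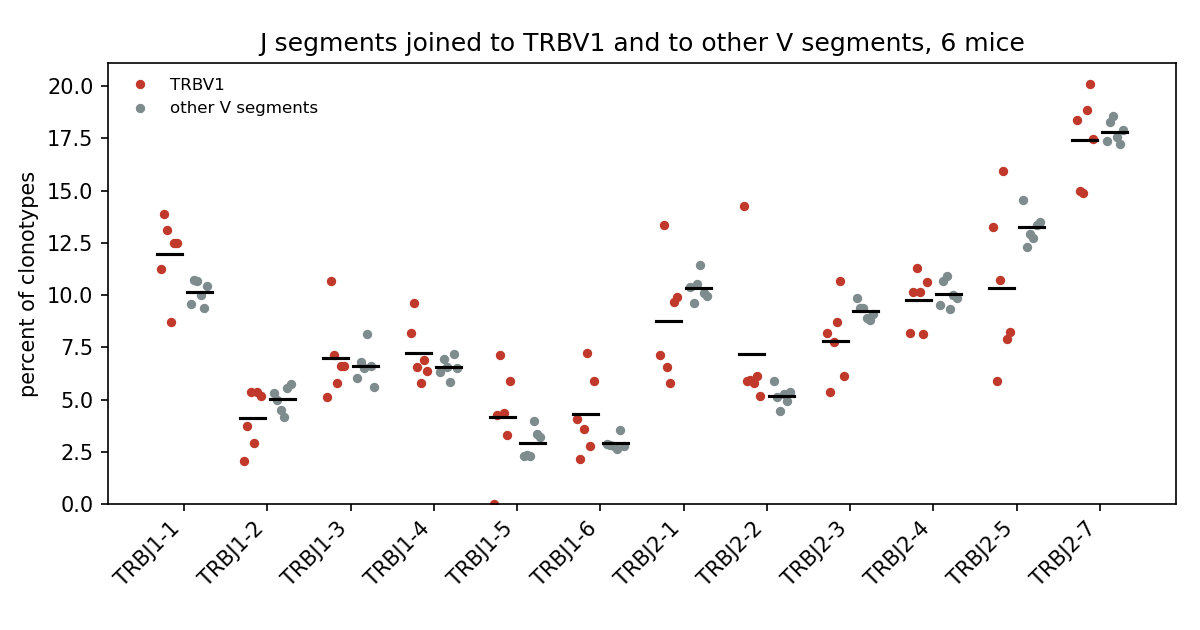
Percent of clonotypes with 2 or more UMIs over both organs (y axis) joined to each J segment (x axis), for TRBV1 (red) and all other V segments (grey); each point is 1 of 6 mice and the bar is the mean. TRBJ2-5 averaged 10.3% with TRBV1 and 13.2% with the other V segments. TRBV1 values spread more widely between mice at each of the 12 J segments, but they rest on fewer clonotypes. A mouse had 69 to 424 TRBV1 clonotypes and 910 to 5438 others.

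The joints of TRBV1 were also compared between KO and WT mice. CD4-Cre acts after most beta chain rearrangement, so this compared the joints found in the recovered cells, not how most of them were made. No difference in the J use of TRBV1 passed the test: 0 of 10 J segments, or 0%, passed with edgeR, 0 had an unadjusted p under 0.05 and DESeq2 called 0. The mean CDR3 length of productive TRBV1 clonotypes was 42.1, 41.8 and 42.2 bases in WT replicates 1, 3 and 4 and 43.0, 42.2 and 42.4 in KO replicates 1, 2 and 3. This was 1 of 8 TRBV1 measures, or 12.5%, whose groups did not overlap, by 0.00295 bases between WT replicate 4 and KO replicate 2, with means of 42 ± 0.180 and 42.5 ± 0.442 (SD, n = 3, exact permutation p = 0.1, the smallest possible, adjusted p = 0.8). KO replicate 3 averaged 41.6 bases in the spleen, below the mean of every WT mouse, and 43.3 in the mLN, and with its spleen alone the difference of 0.513 bases became 0.225 (exact permutation p = 0.7). It was 0.161 with clonotypes of 1 UMI included. KO minus WT was 0.945 bases in the mice with few changed ends and 0.176 in those with many.

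Nonproductive clonotypes made up 11.8% ± 4.10 of TRBV1 clonotypes in WT and 16.5% ± 3.45 in KO mice (exact permutation p = 0.3), with 7.08%, 14.7% and 13.5% in the WT mice and 12.9%, 19.8% and 16.8% in the KO mice. The share of TRBJ2 was 62.3% ± 3.98 and 58.7% ± 9.71 (p = 0.6), the number of bases between V and J 8.72 ± 0.0400 and 8.36 ± 1.06 (p = 1), and the share with a cysteine in the third codon 99.5% ± 0.516 and 99.6% ± 0.473 (p = 0.8), each by the exact permutation test with an adjusted p of 1. In these 4 measures the groups overlapped. The third-codon cysteine lies in the germline bases that the V call rests on, so its share could hardly differ between genotypes. Within the mice with few and with many changed ends, KO minus WT was 5.84 and 5.72 percentage points for nonproductive clonotypes, 3.92 and -4.84 points for TRBJ2, 0.227 and 0.276 for the bases between V and J, and 0 and -0.122 points for the third-codon cysteine.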

How the data were processed

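TCR beta chain cDNA from 12 libraries was analyzed, from the spleen and mLN of 3 WT and 3 KO recipients. According to their methods, the authors primed cDNA in the constant region, added UMIs by 5′ RACE, sequenced on a MiSeq, collapsed reads into UMI consensus sequences by MIGEC, and called clonotypes with default MiXCR settings. The versions of both tools, the germline reference and the genome build are not given in the sources used here. Errors that survived these steps, and similar sequences merged by them, remain in the tables. Clone counts in the deposited tables are whole numbers and were read as UMIs. The deposited clone fraction, which is the count divided by the library total, was used only to check totals. Totals of 2488 to 493287 UMIs set the precision, and intervals (95%, Wilson) and floors cover counting error only.

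V, D and J calls, trimming and the bases between V and J were read from the deposited alignments. Of the TRBV1 entries, 0 had a second V segment of equal score. Clonotypes with at least 2 UMIs were counted once each, except for shares of UMIs, richness and organ overlap, which used all. Segments with at least 10 UMIs (or clonotypes, for J) in at least 3 columns were tested with edgeR's quasi-likelihood test (edgeR 4.0.16, R 4.3.3) on library totals with Benjamini-Hochberg adjustment at 0.05. DESeq2 1.42.0 was an alternative. The organ and TRBV1 against other V comparisons had the mouse as a block. A spleen and an mLN library of 1 genotype with 1 replicate number were treated as 1 mouse, and their V use, as deviations from the mean of the group, correlated at 0.361 to 0.846 over 25 segments. Single measures were compared over mice by two-sided exact permutation tests (20 assignments, 8 measures) or exact sign-flip tests (64 patterns, 6 measures), with Python 3.11.15 and scipy 1.17.1. The labels do not state that mice of a group had separate donors, so p-values measure the spread between these recipients. Fits were tested on simulated counts with changes larger than those reported here for TRBV1. Those runs cannot show whether changes of the reported size would be found. A library was taken to have many changed CDR3 ends where over 10% of clonotypes with 1 UMI had an unusual last 9 bases.

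The members and lists were chosen with earlier results of these data known. The named items were TRBV1, the 3 V segments with the most similar use, J segments past the threshold or among the 3 most used with TRBV1, the largest 2 productive TRBV1 clonotypes per mouse, and the 3 TRBV1 CDR3s found in most mice. Other V segments and J segments were named for comparison after their values were seen. Genome sequence was read from GRCm38 (RefSeq) and gene positions from the GENCODE annotation of that build.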

Additional observations from a re-analysis of the deposited data

Results flagged for a closer look

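In KO replicate 3, the difference between TRBV1 and the other V segments lay far from that of the other 5 mice in 2 of the 6 joint measures. TRBV1 minus other V segments was -1.77 bases between V and J, against -0.463 to -0.00394 in the other mice, and -0.865 bases trimmed from V, and the gap to the nearest mouse was too large a part of the range by Dixon's 95% criterion, which flags about 1 in 20 groups by chance. The mean for this mouse gives the mLN library, with 9 TRBV1 clonotypes of 2 or more UMIs, the same weight as the spleen library with 168.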

How the results depend on the processing

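Of 262 alternative values, 231 kept the direction and the side of the threshold, or the count, of the reported result. Apart from the values within libraries of 1 kind, the direction of TRBV1 use in KO against WT was negative under every setting run, and leaving out each mouse gave -1.02 to -0.32 in the spleen and -1.36 to -0.30 in the mLN on the log2 scale. Replicate numbers 1 and 3 are shared by WT and KO mice but mark no stated batch, and the correlation of the V use deviations of same-numbered mice was -0.0296 to 0.316. With this replicate block, over 4 mice without KO replicate 2 and WT replicate 4, the log2 fold change was -1.70 in the mLN and passed the threshold (adjusted p = 0.0110, 2 of 21 segments called), and -1.10 in the spleen (adjusted p = 0.843); the cause was not tested. KO against WT richness was 2.12 clonotypes under the replicate block. The mLN against spleen difference turned positive on clonotypes per segment (0.0779), without the mouse as a block (0.0509) and as percentage points (0.298). With each mouse left out, it ranged from -0.19 to 0.15 and the interaction from -0.66 to 0.0799. V segments called in the spleen were 2, but 1 with DESeq2 or with all V segments tested, 0 on clonotypes, without the largest clonotype of each V or under the replicate block, and 0 to 1 with a mouse left out. J segments called between TRBV1 and other V segments were 1, but 0 with DESeq2 and 1 to 2 with a mouse left out.

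For KO against WT with each mouse left out, the ranges that crossed 0 were -10.8 to 4.91 percentage points for the top clonotype share, -6.82 to 1.06 clonotypes for richness, -8.99 to 0.376 points for TRBJ2, -0.665 to 0.258 bases between V and J, -0.301 to 0.0173 for organ overlap and -0.125 to 0.389 points for the third-codon cysteine. Richness was 2.86 in the spleen only and 0.742 with the spleen alone for KO replicate 3, a setting added after the data were seen, and TRBJ2 was 1.90 points in the spleen only. No value of these 8 measures passed the threshold. For TRBV1 against other V segments, 3 measures passed only in an unpaired exact permutation test. They were CDR3 length (0.972), bases between V and J (-0.455) and bases trimmed (-0.400), with adjusted p = 0.00649, 0.0476 and 0.00649. That test ignores that both values of a pair come from the same mouse. The paired test, which keeps the pairs, cannot go below 0.0313 before adjustment, and none of the 3 passed it. The nonproductive difference was -2.08 points in the spleen only, -0.525 from 1 UMI on, -1.66 with the spleen alone for KO replicate 3, -0.663 with usual CDR3 ends only (also added after the data were seen), and -0.645 to 1.13 with each mouse left out. Depth limits mainly the mLN of KO replicate 3, where 53 TRBV1 UMIs were found.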
